A study of Danio rerio with 30 samples.

Results

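The comparison described here is that of imiquimod with DMSO in unstressed zebrafish larvae heterozygous for a mutation of rps14, taken from an RNA-seq study of blood stem and progenitor cells. It rests on 7 of the 30 libraries of the study: 3 from heterozygous larvae (Rps14+/-) kept in 20 µM imiquimod, and 4 from heterozygous larvae kept in DMSO, its solvent. Larvae of both groups carried the Tg(itga2b:GFP) transgene, in which GFP is expressed under the promoter of the platelet integrin gene itga2b. None of them had been given phenylhydrazine (Phz), the compound that destroys red blood cells and that other groups of the study received at 1 µg/mL. Treatment ran for 4 days from 48 hours post fertilization, to 6 days post fertilization. Larvae of a genotype and treatment were pooled after genotyping from tail clips, and cells of low GFP were sorted for full-length cDNA libraries by Smart-seq2. All the cells compared are heterozygous, so the comparison gives the response to the drug on that background and not the effect of the mutation. The labels give neither the number of larvae in a pool nor whether the replicates are separate pools, so the p-values reflect library-to-library spread, some of which may be technical.

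Imiquimod is a small agonist of the endosomal toll-like receptor 7. In mammals this receptor passes its signal through MyD88 and the IRAK kinases to NF-kB, which turns on cytokine genes, and to IRF7, which turns on interferon genes. In mammals imiquimod has also been described as an inhibitor of respiratory complex I and of the quinone oxidoreductase NQO2. RPS14 is a protein of the small ribosomal subunit, and loss of a copy of its gene contributes to the anaemia of a subtype of myelodysplastic syndrome in humans. Cells of low itga2b:GFP in zebrafish larvae hold stem and progenitor cells, while thrombocytes, the nucleated counterparts of platelets, have high GFP.

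The 7 libraries held between 5706129 and 8182578 counts, and between 15353 and 20109 genes with at least 1 count. Over the 7 libraries the imiquimod group did not stand apart: correlations between an imiquimod and a DMSO library (0.866 to 0.926, across genes on the log2 CPM scale) covered the range of those within imiquimod (0.875 to 0.909) and within DMSO (0.869 to 0.909). Transcripts of the progenitor factor MYB were present in every library, at 804, 621 and 517 CPM (counts scaled to a library total of 1000000, with the TMM factor of each library) with imiquimod and 881, 667, 457 and 812 CPM with DMSO. The same held for RUNX1, gata2b, TAL1, LMO2, GATA2, MEIS1 and gfi1aa, whose lowest value in any library was 5.93 CPM, for gfi1aa. All the progenitor markers examined were thus detected, which does not give the share of progenitors among the sorted cells. The neutrophil enzyme gene lyz was also abundant, at 12300, 6160 and 9990 CPM with imiquimod and 3730, 12800, 13200 and 3770 CPM with DMSO. Markers of exocrine pancreas were uneven between libraries of both groups: prss1, a trypsinogen, had 17.7, 629 and 604 CPM with imiquimod and 20.9, 3.86, 944 and 42.6 CPM with DMSO. The summed CPM of 33 muscle genes was 88.5 to 417 with imiquimod and 144 to 1080 with DMSO, the highest being DMSO replicate 4. In sorted bulk samples a lower count can mean fewer cells of a type or less RNA per cell, and these cannot be told apart.

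RPS14 itself, whose dose the genotype lowers, had 269, 203 and 94.8 CPM with imiquimod and 263, 191, 218 and 279 CPM with DMSO. The groups overlapped, and imiquimod replicate 3 was the lowest of the 7. The log2 fold change (imiquimod over DMSO) was -0.33 ± 0.28 (SE; edgeR quasi-likelihood test, adjusted p = 1). Both groups lay below unstressed wild-type cells, at 501 ± 159 CPM (SD, n = 4) with imiquimod and 610 ± 118 CPM (n = 3) with DMSO. TLR7, the receptor of the drug, was barely detected: 2.31, 0 and 1.49 CPM with imiquimod and 0, 0, 4.85 and 0 CPM with DMSO. These are 14, 0 and 9 reads with imiquimod and 0, 0, 30 and 0 reads with DMSO, too few to compare the groups. A count of 0 allows up to 3 reads, or 0.36 to 0.455 CPM in the libraries at 0, counting error only.

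itga2b, the gene whose promoter drives the GFP used for sorting, was lower in all 3 imiquimod libraries than in all 4 DMSO libraries. It had 1.82, 0.455 and 2.48 CPM with imiquimod (11, 3 and 15 reads) and 10.2, 12.7, 13.2 and 31.7 CPM with DMSO (85, 92, 82 and 210 reads). The log2 fold change was -3.41 ± 1.2, with an unadjusted p of 0.0079 and an adjusted p of 1 (edgeR). GP1BB, part of the platelet receptor for von Willebrand factor, had 14.5, 9.85 and 10.8 CPM with imiquimod and 22, 20.1, 24.5 and 31.4 CPM with DMSO, again without overlap. The thrombocyte genes as a list did not share this order: of 31 tested, itga2b included, 15 had a positive fold change and the median was -0.09. Without overlap, 2 lay above and 2 below (6.45% each, beside 2.98% and 2.44% of all genes). P2RY1, the ADP receptor of platelets, lay the other way, at 17.9, 40.8 and 11.9 CPM with imiquimod and 4.08, 0.414, 3.07 and 9.06 CPM with DMSO. Elsewhere in the study itga2b averaged 4.80 ± 4.14 CPM (SD, n = 4) with imiquimod and 13.5 ± 7.71 CPM (n = 5) with DMSO in Phz-stressed heterozygotes, and 4.72 ± 5.71 CPM (n = 4) with imiquimod and 9.25 ± 13.8 CPM (n = 3) with DMSO in unstressed wild type, and within each of these pairs the libraries overlapped.

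Across all genes no gene passed the threshold of the main test. Of 19930 genes tested, 0 (0%) were called at an adjusted p under 0.05 by edgeR's quasi-likelihood test, and the smallest adjusted p was 0.056. At an unadjusted p under 0.05 there were 876 genes (4.4%), of which 465 were higher (2.33%) and 411 lower (2.06%) with imiquimod. All 3 imiquimod libraries lay above all 4 DMSO libraries for 593 genes (2.98%) and below them for 486 (2.44%), 1079 genes in all (5.41%). With libraries in random order, the groups would separate in a given direction with a probability of 0.0286 (35 possible splits). The 2.98% and 2.44% were close to this rate. The 4.4% at an unadjusted p under 0.05 was also no more than chance alone gives. limma-voom called 0 genes and DESeq2 called 12 (0.0602%), 8 higher and 4 lower with imiquimod. The fold changes were balanced, with 50.6% positive and a median of 0.01 on the log2 scale.

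The 12 genes that DESeq2 called are named here after their values were seen. si:ch211-136a14.2, a gene without an informative name, had 15.5, 35.2 and 104 CPM with imiquimod and 7.56, 6.90, 5.17 and 11.6 CPM with DMSO, the smallest p of all genes. Its log2 fold change was 2.72 ± 0.48 with an adjusted p of 0.056 in edgeR, and 2.73 with an adjusted p of 8.7e-06 in DESeq2. Without imiquimod replicate 1, its lowest imiquimod library, the edgeR adjusted p was 0.0038. It also had a positive fold change in unstressed wild type (1.15 ± 0.49) and in Phz-stressed heterozygotes (1.2 ± 0.41), neither called (adjusted p = 0.64 and 1, edgeR). The other 7 higher genes were si:cabz01102082.1, si:ch73-308b14.1, si:ch211-237b12.4, CD81, GFM2, arhgap29b and WSB1. The 4 lower genes were SF3A2, si:dkey-230p4.1, atp5if1a and TMEM258. For all 12 the imiquimod and DMSO libraries did not overlap, which their choice by p in the same comparison favours.

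Among genes with informative names, the smallest p-values on the higher side belonged to genes of unlike roles. CD81 (ENSDARG00000036080, 1 of 2 genes with that symbol), a tetraspanin of the cell surface, had 805, 738 and 921 CPM with imiquimod and 536, 396, 413 and 592 CPM with DMSO. Its log2 fold change was 0.76 ± 0.18 (adjusted p = 0.50, edgeR; 0.0496, DESeq2). arhgap29b, a GTPase-activating protein, had 137, 151 and 134 CPM with imiquimod and 73.5, 74.0, 84.9 and 72.3 CPM with DMSO, a log2 fold change of 0.89 ± 0.21. The spread within each group was small beside the distance between them, which the choice by p also favours. GFM2, a mitochondrial translation factor that splits the ribosome at the end of a round, had 26.9, 47.6 and 26.96 CPM with imiquimod and 4.32, 10.6, 16.5 and 7.40 CPM with DMSO. SOX4 (ENSDARG00000098834, 1 of 2 genes with that symbol), a transcription factor of progenitor cells, had 64.0, 73.7 and 37.2 CPM with imiquimod and 22.6, 24.7, 20.99 and 26.4 CPM with DMSO. KLHL8, psd3l, SLC44A2 (1 of 2 genes with that symbol) and WSB1 complete the 8 genes, with log2 fold changes between 0.80 and 1.36.

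On the lower side, the smallest p belonged to SF3A2. SF3A2, a subunit of the U2 spliceosomal particle, had 84.1, 50.02 and 73.4 CPM with imiquimod and 143, 118, 125 and 138 CPM with DMSO, a log2 fold change of -0.92 ± 0.21 (adjusted p = 0.50, edgeR; 0.0263, DESeq2). hnrnpa0l, an RNA-binding protein, had 830, 839 and 798 CPM with imiquimod and 1249, 1295, 1101 and 1191 CPM with DMSO. DDX39A (1 of 2 genes with that symbol), a helicase of mRNA export, had 223, 255 and 233 CPM with imiquimod and 383, 412, 322 and 312 CPM with DMSO. DDX23, a spliceosomal helicase, averaged 41.8 ± 4.86 CPM with imiquimod and 89.4 ± 33.8 CPM with DMSO (SD, n = 3 and 4). MAGOHB, of the exon junction complex, averaged 22.7 ± 2.67 CPM with imiquimod and 46.1 ± 6.58 CPM with DMSO. MEPCE (1 of 2 genes with that symbol), which caps the 7SK RNA, averaged 88.1 ± 10.5 CPM with imiquimod and 157 ± 21.8 CPM with DMSO. The other 2 genes were atp5if1a, described with the respiratory genes, and rgs3b, a regulator of G protein signalling. For all 16 genes of the plot the groups did not overlap, which their choice by smallest p favours. The smallest of their adjusted p-values was 0.498 (edgeR).

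**Figure D1:**
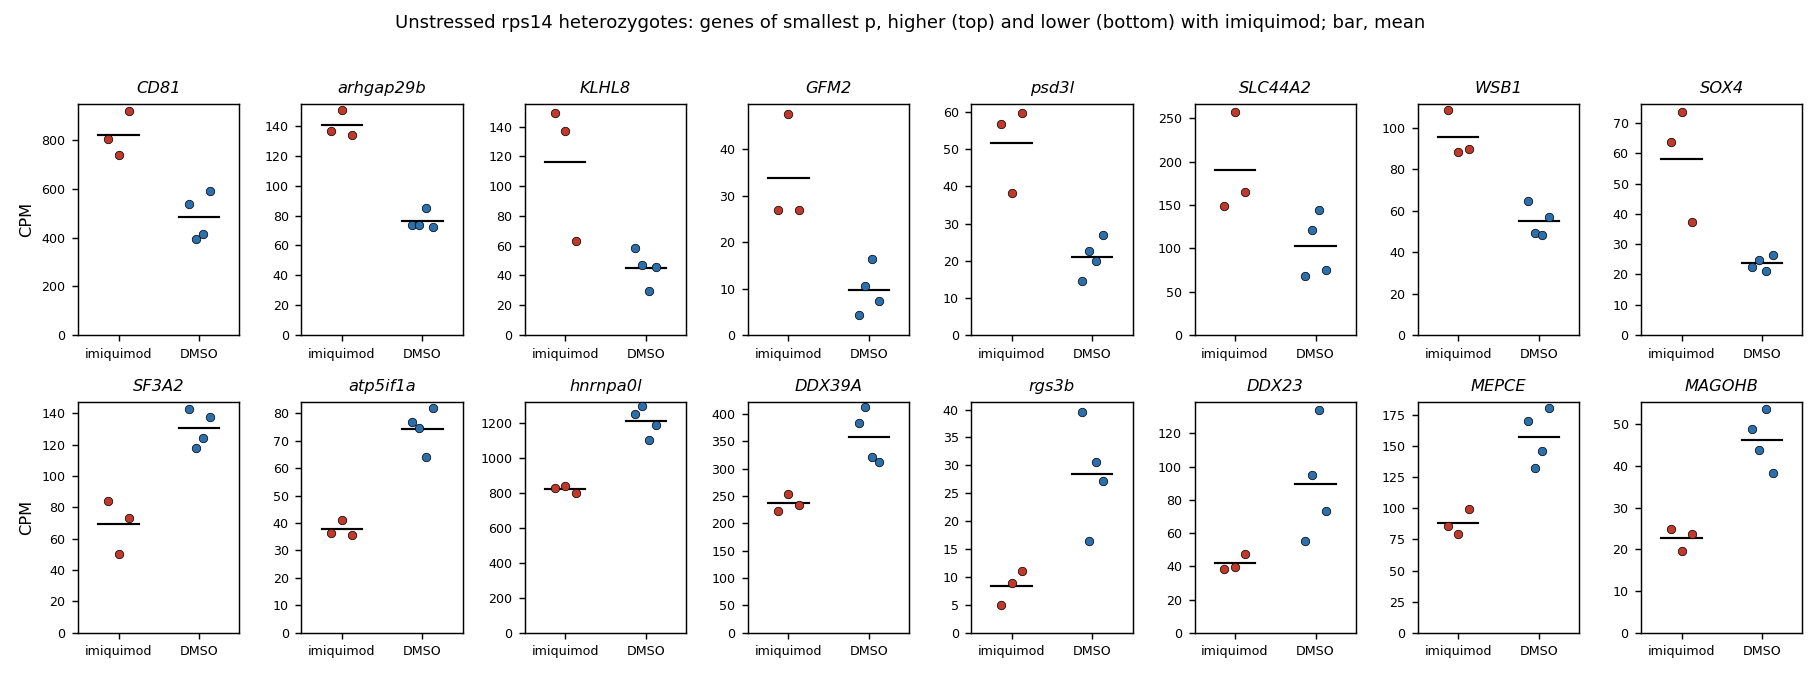
CPM in each library (points) and group mean (bar) for the 8 genes of smallest p that were higher (top row) and the 8 that were lower (bottom row) with imiquimod, with imiquimod in red and DMSO in blue. The hnrnpa0l points lie at 798 to 839 CPM with imiquimod and 1101 to 1295 CPM with DMSO.

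The rest of the comparison was described with 33 lists of genes, by how many members had a positive fold change, how many had non-overlapping groups, and the list's median, each beside the same value over all genes (50.6% positive, 2.98% above, 2.44% below, median 0.01). No member of any list was called by edgeR. Without imiquimod replicate 3 the median over all genes was -0.08, with 9309 of 20449 positive. List medians given without that library are to be read beside this value. In the plot of list members, nearly all ribosomal protein genes and nuclear genes of the respiratory chain lie on the negative side.

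**Figure D2:**
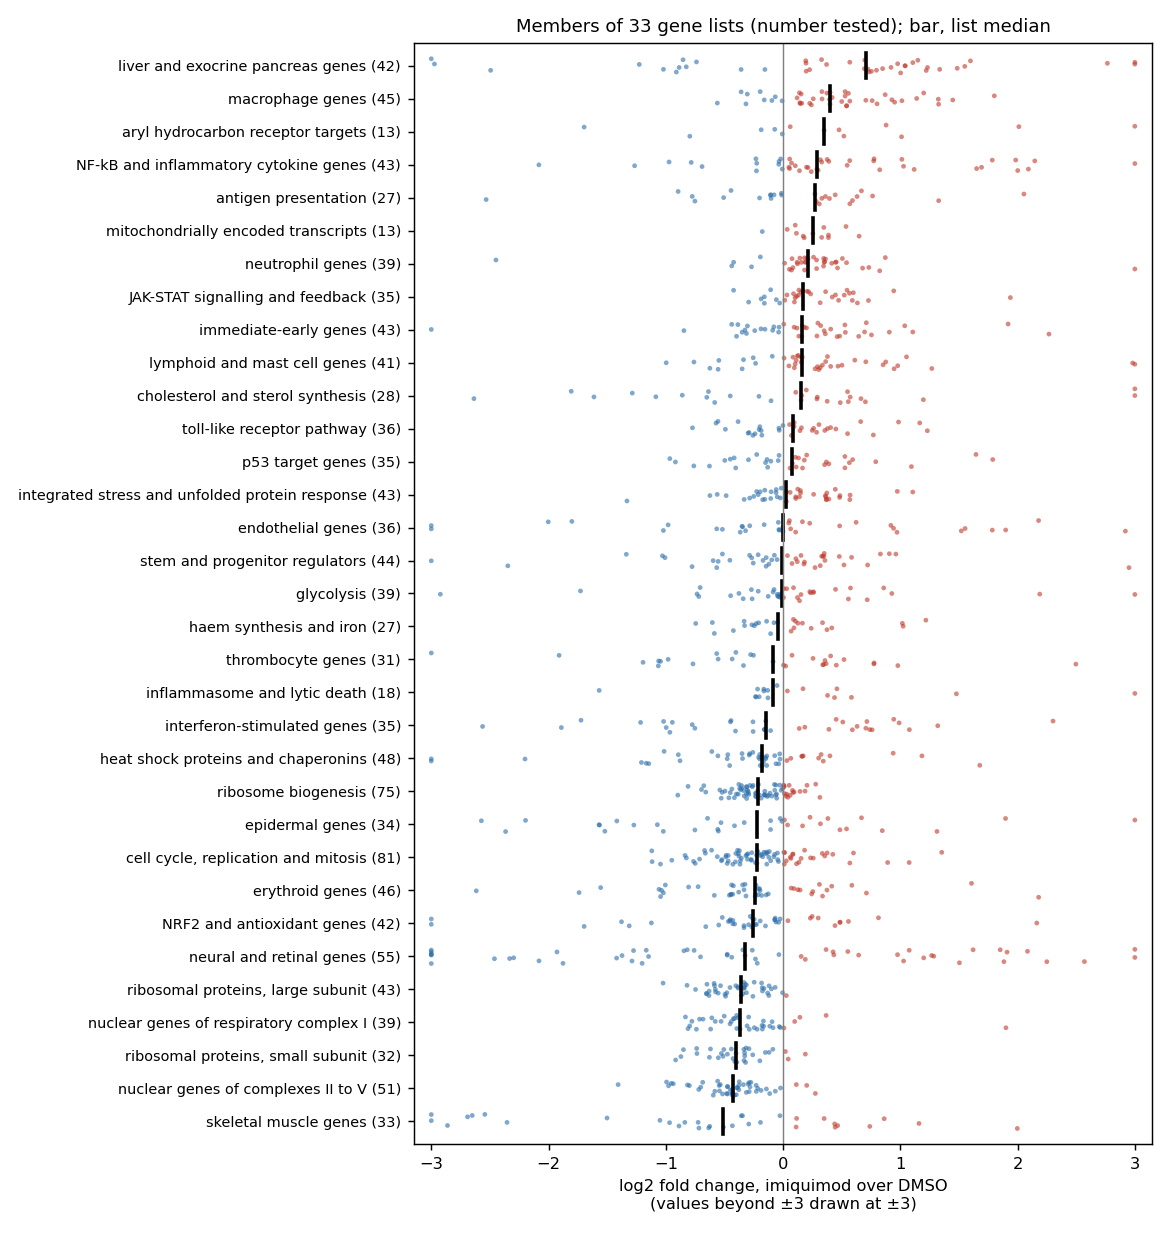
Log2 fold change (imiquimod over DMSO, unstressed heterozygotes) of each tested member of the 33 lists, red where positive and blue where negative, with the list median as a black bar. The medians run from 0.71 for liver and exocrine pancreas genes to -0.51 for skeletal muscle genes.

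Of the 33 lists, those of nuclear genes of the mitochondrial respiratory chain had the largest shares of non-overlapping members. The chain moves electrons through complexes I to IV and uses the proton gradient in complex V, the ATP synthase. Of 51 tested nuclear genes of complexes II to V, 48 had a negative fold change (94.1%), 21 lay below all DMSO libraries in every imiquimod library (41.2%) and 0 above, and the median log2 fold change was -0.43. Their summed level was 6345, 7249 and 7305 CPM with imiquimod and 8846, 8699, 7896 and 8278 CPM with DMSO. Of 39 nuclear genes of complex I, 34 were negative (87.2%), 11 lay below without overlap (28.2%) and the median was -0.37. Their summed level was 1840, 2153 and 2148 CPM with imiquimod and 2623, 2478, 2299 and 2446 CPM with DMSO. For both sums every imiquimod library was under every DMSO library.

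The members of smallest p are given as values, a choice that favours groups without overlap. atp5if1a, the inhibitor of ATP synthase's reverse reaction, had 36.5, 41.1 and 35.7 CPM with imiquimod and 76.8, 74.7, 64.1 and 81.8 CPM with DMSO, a log2 fold change of -0.98 ± 0.25 (adjusted p = 0.78, edgeR; 0.0496, DESeq2). atp5mc3b, a subunit of the rotating ring of ATP synthase, had 695, 589 and 474 CPM with imiquimod and 951, 757, 701 and 943 CPM with DMSO. cox7b, of complex IV, had 23.3, 35.01 and 16.2 CPM with imiquimod and 53.6, 41.8, 53.8 and 48.9 CPM with DMSO. UQCR10, of complex III, had 11.07, 16.2 and 12.6 CPM with imiquimod and 22.9, 32.02, 26.3 and 20.5 CPM with DMSO. For these 4 genes the highest imiquimod library lay below the lowest DMSO library. In complex I, NDUFB10 averaged 57.4 ± 15.2 CPM with imiquimod and 99.7 ± 14.4 CPM with DMSO, and NDUFS5, ndufb3 and NDUFA6 had log2 fold changes of -0.71, -0.74 and -0.62. Exceptions in sign were few: the positive members of complexes II to V were ATP5F1A, cox8b and 1 of the genes with the symbol COX5B, the highest at 0.28. When 1 library was left out in turn, the median of complexes II to V stayed between -0.45 and -0.36, and that of complex I between -0.41 and -0.25.

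The 13 transcripts encoded by the mitochondrial genome itself did not share the direction of the nuclear genes. Of these, 12 had a positive fold change, 2 lay above all DMSO libraries (15.4%) and the median was 0.25. MT-CO3, a catalytic-core subunit of complex IV, had 5086, 4502 and 5234 CPM with imiquimod and 3517, 3437, 4003 and 2666 CPM with DMSO, a log2 fold change of 0.54 ± 0.17 (unadjusted p = 0.0034, adjusted p = 1, edgeR). MT-CO2, from the same complex, had 5964, 4477 and 5614 CPM with imiquimod and 4340, 3551, 4102 and 4374 CPM with DMSO. MT-CO1, the third core subunit, overlapped between groups, at 2534, 2478 and 4552 CPM with imiquimod and 3618, 1871, 1929 and 2734 CPM with DMSO. The summed level of the 13 transcripts was 23390, 15320 and 23180 CPM with imiquimod and 21260, 12140, 13700 and 16090 CPM with DMSO. The groups overlapped, since imiquimod replicate 2 lay below DMSO replicates 1 and 4. Their share of the unscaled counts of a library was 2.15 ± 0.45% with imiquimod and 1.65 ± 0.39% with DMSO (SD, n = 3 and 4; exact permutation test, two-sided p = 0.17, 0.51 adjusted over 4 library measures, smallest possible p 0.029). The median was 0.05 without imiquimod replicate 1.

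**Figure D3:**
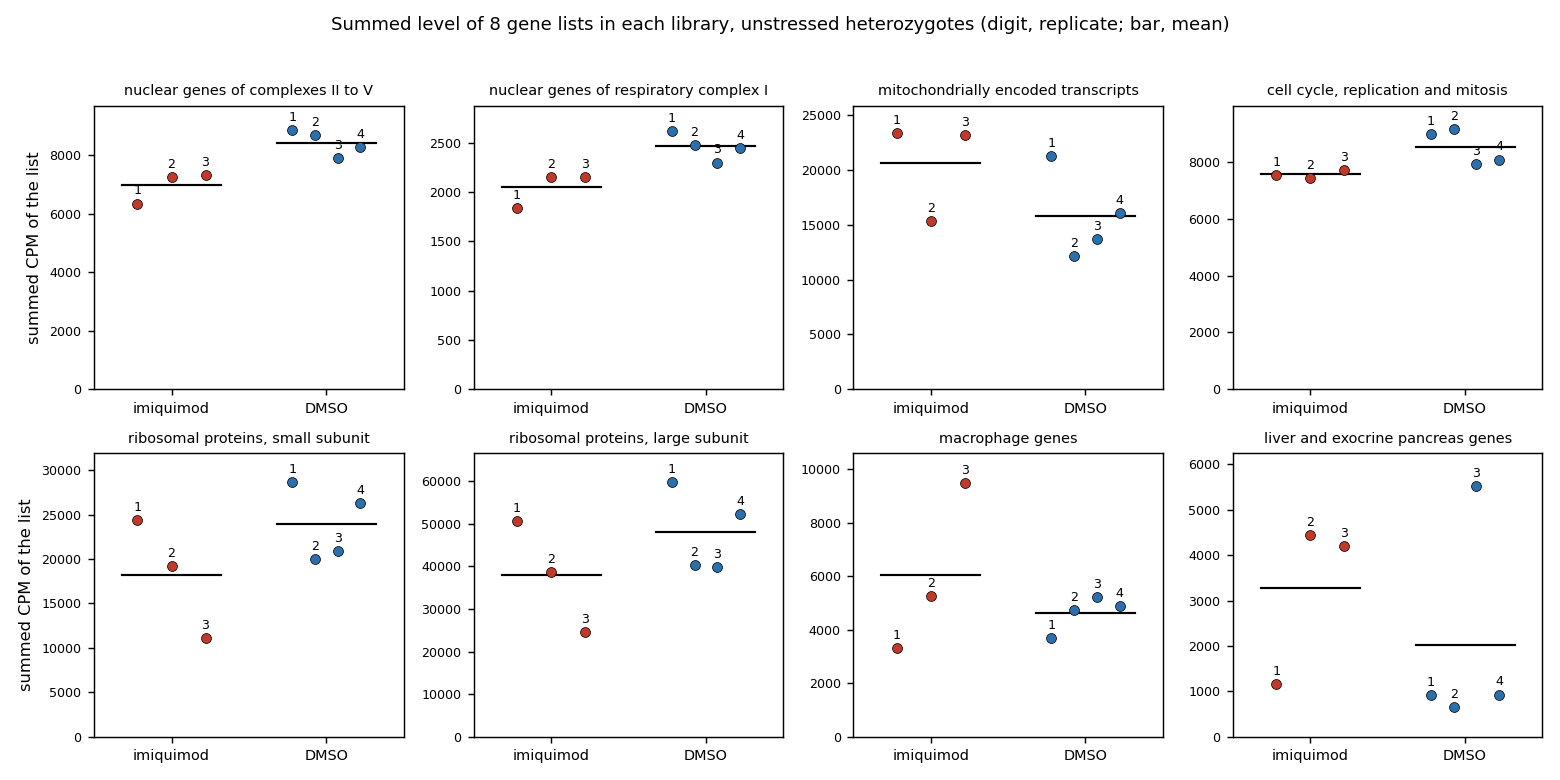
Summed CPM of 8 gene lists in each library, with imiquimod (red) left of DMSO (blue), the replicate number above each point and the group mean as a bar. The 2 nuclear respiratory lists and the cell cycle list do not overlap between groups, while imiquimod replicate 3 is the lowest library for both ribosomal lists and the highest for macrophage genes.

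Genes of ribosomal proteins were mostly on the lower side as well, but with a large part from 1 library. Of 32 tested small-subunit genes, 29 had a negative fold change, with a median of -0.40, and of 43 large-subunit genes 42 were negative, with a median of -0.36. Only 1 gene of each list lay below without overlap (3.12% and 2.33%, beside 2.44% of all genes). The summed level of the large-subunit genes was 50650, 38760 and 24570 CPM with imiquimod and 59850, 40320, 39930 and 52310 CPM with DMSO. Without imiquimod replicate 3, the lowest, the medians were -0.08 for the small and -0.09 for the large subunit. Over all genes the median was then -0.08, so neither list stood apart by its median. By sign both still leaned lower, with 11 of 33 and 12 of 43 genes positive, beside 9309 of 20449 for all genes. rps20 had 1606, 1290 and 638 CPM with imiquimod and 2406, 1419, 1471 and 2558 CPM with DMSO. RPL11, whose protein binds the p53 inhibitor MDM2 when ribosome assembly fails, had 440, 380 and 228 CPM with imiquimod and 727, 506, 494 and 469 CPM with DMSO. It was the large-subunit gene whose groups did not overlap. RPS12, RPS24, RPS15, rplp2, RPL19 and rpl7a had log2 fold changes between -0.92 and -0.45, with replicate 3 the lowest imiquimod library for each.

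Factors that build ribosomes had a median nearer to 0 over all 7 libraries. Of 75 tested, 58 were negative (77.3%), 7 lay below without overlap (9.33%) and the median was -0.22. Without imiquimod replicate 3 it was -0.12, beside -0.08 and -0.09 for small-subunit and large-subunit proteins, so the order of the lists rested on that library. RCL1, an endonuclease of the small-subunit pathway, had 92.4, 112 and 99.6 CPM with imiquimod and 189, 156, 117 and 194 CPM with DMSO. RRS1, a large-subunit assembly factor, had 48.9, 37.4 and 44.5 CPM with imiquimod and 66.9, 81.2, 65.2 and 65.5 CPM with DMSO. TSR3 and WDR3, also among the members of smallest p, overlapped between groups (log2 fold changes -0.90 and -0.52). Targets of p53, which is activated when ribosome production fails, were divided. The median over 35 was 0.08 with 19 positive, and -0.08 without imiquimod replicate 3. mdm2, the p53 inhibitor, had 135, 124 and 131 CPM with imiquimod and 84.6, 118, 73.3 and 68.5 CPM with DMSO. cdkn1a, the cell cycle inhibitor p21, had 9.75, 31.8 and 37.0 CPM with imiquimod and 33.1, 45.0, 62.8 and 57.4 CPM with DMSO. Both are p53 targets, and their fold changes were opposite in sign, 0.59 ± 0.25 for mdm2 and -0.92 ± 0.39 for cdkn1a.

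The genes of the toll-like receptor pathway had no common direction. Of 36 tested, 20 had a positive fold change and the median was 0.08 (-0.04 without imiquimod replicate 3). The 3 whose groups did not overlap (8.33%) were all higher with imiquimod. UNC93B1, which in mammals carries TLR7 to endosomes, had 44.0, 21.1 and 22 CPM with imiquimod and 3.84, 19.9, 15.7 and 12.4 CPM with DMSO. ticam1, the adaptor of TLR3, had 14.9, 18.6 and 12.9 CPM with imiquimod and 6.48, 7.32, 11.14 and 6.34 CPM with DMSO. TAB2, a partner of the TAK1 kinase, had 29.4, 35.9 and 27.3 CPM with imiquimod and 20.3, 15.7, 19.5 and 22.5 CPM with DMSO. IRAK4, a kinase of the MyD88 complex, overlapped, with 18.2, 51.7 and 32.6 CPM with imiquimod and 44.5, 33.8, 22.5 and 100 CPM with DMSO.

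NF-kB targets and cytokines were more often higher than lower, with 31 of 43 positive (72.1%) and a median of 0.29. Only 1 member, higher with imiquimod, was free of overlap (2.33%, beside 2.98% of all genes). That member was NFKBIZ, an atypical IkB protein induced by toll-like receptors in mammals. It had 25.3, 33.5 and 42.0 CPM with imiquimod and 8.89, 5.25, 9.04 and 8.30 CPM with DMSO, a log2 fold change of 2.09 ± 0.58 (unadjusted p = 0.00095, adjusted p = 0.87, edgeR). tnfaip2b, related to a TNF-induced gene, had 29.4, 1.36 and 20.7 CPM with imiquimod and 0, 0.276, 4.68 and 0.151 CPM with DMSO. The chemokine gene ccl35.1 had 35.7, 22.4 and 107 CPM with imiquimod and 9.13, 11.5, 30.8 and 4.53 CPM with DMSO, and csf3a, a granulocyte growth factor gene, had 1.82, 17.9 and 26.5 CPM with imiquimod and 6.72, 0.828, 5.49 and 2.26 CPM with DMSO. For these 3 the groups overlapped. The list's median was -0.17 without imiquimod replicate 3 and 0.65 without DMSO replicate 3, the DMSO library of highest summed level. Of 16 alternative settings, only the one without imiquimod replicate 3 changed its sign.

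Interferon-stimulated genes showed no common direction. Of 35 tested, 16 were positive and the median was -0.15 (0.28 without DMSO replicate 1). Without overlap, 1 member lay above and 2 below (2.86% and 5.71%, beside 2.98% and 2.44% of all genes). ifit16 had 0.331, 0.303 and 2.15 CPM with imiquimod and 6.24, 3.86, 2.91 and 9.21 CPM with DMSO, and gbp4, a guanylate-binding GTPase gene, had 18.8, 19.6 and 9.60 CPM with imiquimod and 0, 3.45, 9.53 and 0 CPM with DMSO. The helicase gene DHX58 and the exonuclease gene isg20 overlapped between groups. Genes of JAK-STAT signalling, which carries cytokine signals to the nucleus, were positive for 27 of 35 (77.1%) with a median of 0.17. Without overlap, 2 lay above (5.71%, beside 2.98% of all genes) and 0 below. Their summed level was 2650, 2527 and 2509 CPM with imiquimod and 2193, 2436, 2349 and 2105 CPM with DMSO, without overlap. il6r, the interleukin-6 receptor gene, had 400, 343 and 311 CPM with imiquimod and 202, 293, 288 and 246 CPM with DMSO. jak3, a kinase of lymphoid cytokine receptors, had 39.8, 28.5 and 28.9 CPM with imiquimod and 23.2, 18.9, 23.7 and 19.8 CPM with DMSO. The immediate-early gene egr1 lay higher without overlap, at 205, 239 and 300 CPM with imiquimod and 102, 92.3, 172 and 164 CPM with DMSO (log2 fold change 0.91 ± 0.39, adjusted p = 1, edgeR). Over all 43 immediate-early genes the median was 0.16, with 27 positive, and -0.10 without imiquimod replicate 3.

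Macrophage genes were positive for 36 of 45 (80%) with a median of 0.40, and 3 lay above without overlap (6.67%). grna, a granulin gene, had 129, 226 and 330 CPM with imiquimod and 119, 107, 89.3 and 48.9 CPM with DMSO. itgae.1, an integrin gene, had 24.1, 38.8 and 39.5 CPM with imiquimod and 7.32, 14.9, 7.11 and 9.81 CPM with DMSO. cybb, a subunit of the phagocyte oxidase that the neutrophil list also holds, had 264, 261 and 292 CPM with imiquimod and 203, 169, 189 and 188 CPM with DMSO. The summed level of the 45 genes was 3323, 5272 and 9492 CPM with imiquimod and 3678, 4724, 5211 and 4889 CPM with DMSO. Replicate 3 of imiquimod thus held the highest sum and replicate 1 the lowest, and without replicate 3 the median was 0.03 with 23 of 45 positive. cd68, a lysosomal protein of macrophages, had 109, 170.2 and 367 CPM with imiquimod and 51.7, 161, 144 and 115 CPM with DMSO, and ms4a17a.10 had 14.7, 20.01 and 40.4 CPM with imiquimod and 17.6, 9.52, 6.78 and 15.5 CPM with DMSO. Both overlapped between groups, with imiquimod replicate 3 the highest library. Replicate 3 of imiquimod had the most genes detected of the 7 libraries (20109), the least ribosomal protein mRNA and the highest sum of NF-kB genes. That sum was 6267 CPM, against 1774 and 2816 CPM in the other imiquimod libraries and 1653 to 5698 CPM with DMSO. The same-numbered DMSO library, replicate 3, came next for genes detected (19476) and for the NF-kB sum (5698 CPM). The part of macrophages or of imiquimod replicate 3 in the NF-kB values was not tested beyond leaving that imiquimod library out.

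Neutrophil genes were positive for 34 of 39 (87.2%) with a median of 0.21, and this did not turn when any library was left out (0.15 to 0.36). Their summed level nevertheless overlapped, at 19900 to 28400 CPM with imiquimod and 14700 to 28600 CPM with DMSO. Stem and progenitor regulators were evenly divided, 22 of 44 positive with a median of -0.01. Lymphoid and mast cell genes were positive for 31 of 41, with a median of 0.16. Erythroid genes were negative for 32 of 46, with a median of -0.24. hbae1.3, an embryonic alpha-globin gene, had 61.2, 78.7 and 109 CPM with imiquimod and 352, 261, 100 and 260 CPM with DMSO, where DMSO replicate 3 lay among the imiquimod libraries.

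Genes of the cell cycle were lower in sum in every imiquimod library. Of 81 tested, 58 were negative (71.6%), 8 lay below without overlap (9.88%) and 0 above, and the median was -0.22. Their summed level was 7543, 7460 and 7722 CPM with imiquimod and 8999, 9170, 7924 and 8099 CPM with DMSO. RRM2 (1 of 2 genes with that symbol), a subunit of ribonucleotide reductase, averaged 35.5 ± 16.1 CPM with imiquimod and 68.5 ± 19.5 CPM with DMSO (SD, n = 3 and 4), and the groups overlapped. RPA2, of the single-strand binding complex at replication forks, had 123, 83.4 and 148 CPM with imiquimod and 202, 181, 152 and 186 CPM with DMSO. kif20a, a kinesin of cytokinesis, had 10.6, 12.3 and 32.1 CPM with imiquimod and 33.1, 46.6, 53.6 and 25.8 CPM with DMSO.

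Antioxidant genes, many of them targets of the transcription factor NRF2, were negative for 32 of 42 (76.2%) with a median of -0.25, and 6 lay below without overlap (14.3%). TXN, a thioredoxin, had 232, 284 and 288 CPM with imiquimod and 378, 393, 360 and 312 CPM with DMSO. mgst3b, a microsomal glutathione transferase, had 63.0, 60.6 and 84.9 CPM with imiquimod and 113, 131, 90.8 and 104 CPM with DMSO. gpx1a and PRDX3, also among the members of smallest p, overlapped between groups (log2 fold changes -0.47 and -0.55). Chaperone genes were negative for 36 of 48, with a median of -0.18. Without overlap, 4 lay below (8.33%) and 1 above (2.08%). The exception with non-overlapping groups was HSP90AB1, the constitutive HSP90, at 8134, 7001 and 7414 CPM with imiquimod and 5568, 6536, 5998 and 5908 CPM with DMSO. CCT8, a subunit of the cytosolic chaperonin, lay the other way, at 280, 245 and 208 CPM with imiquimod and 365, 285, 318 and 372 CPM with DMSO. Sterol synthesis genes had a median of 0.16 over 28, and of -0.05 without either imiquimod replicate 3 or DMSO replicate 4. CYP51A1, lanosterol demethylase, had 8.60, 7.88 and 1.82 CPM with imiquimod and 0.120, 0, 0 and 0.302 CPM with DMSO, and insig1, a sterol-regulated brake on SREBP, had 14.9, 45.2 and 30.9 CPM with imiquimod and 10.7, 14.1, 13.1 and 15.1 CPM with DMSO. Of 13 genes of the aryl hydrocarbon receptor list, 8 were positive, with a median of 0.35 (-0.07 without imiquimod replicate 3) and a summed level of 198 to 444 CPM with imiquimod and 159 to 457 CPM with DMSO. arnt, the receptor's dimer partner, was the only member without overlap (7.69%), at 19.2, 27.3 and 20.3 CPM with imiquimod and 17.9, 11.04, 15.99 and 3.47 CPM with DMSO. CYP1A1, the classical target, was near 0 in most libraries, with 0.165, 0 and 5.13 CPM with imiquimod and 0, 0.414, 0.162 and 0 CPM with DMSO.

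The same drug contrast was available in 2 other settings that share no library with this one, unstressed wild type and Phz-stressed heterozygotes, and edgeR called 0 genes in both. At an unadjusted p under 0.05 there were 1407 genes (7.06%) in unstressed wild type and 858 (4.31%) in stressed heterozygotes, and DESeq2 called 77 (0.386%) and 13 (0.0652%) in the same order. Some lists lay on the same side in unstressed wild type. The median of complexes II to V was -0.43 in unstressed heterozygotes, -0.62 in unstressed wild type and 0.10 in stressed heterozygotes. For complex I the medians were -0.37, -0.52 and 0.06 in the same order of settings. Large-subunit ribosomal proteins had medians of -0.36, -0.47 and -0.04, and small-subunit proteins of -0.40, -0.56 and -0.07. atp5if1a had log2 fold changes of -0.98 ± 0.25, -0.78 ± 0.24 and 0.01 ± 0.21. Other lists had medians of opposite sign in unstressed heterozygotes and wild type. In that order, macrophage genes had 0.40 and -0.13, neutrophil genes 0.21 and -0.16, and NF-kB genes 0.29 and -0.08. Erythroid genes had -0.24 and 0.175, ribosome biogenesis -0.22 and 0.06, and muscle -0.51 and 1.42. Over all genes the medians were 0.01 and 0.08.

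**Figure D4:**
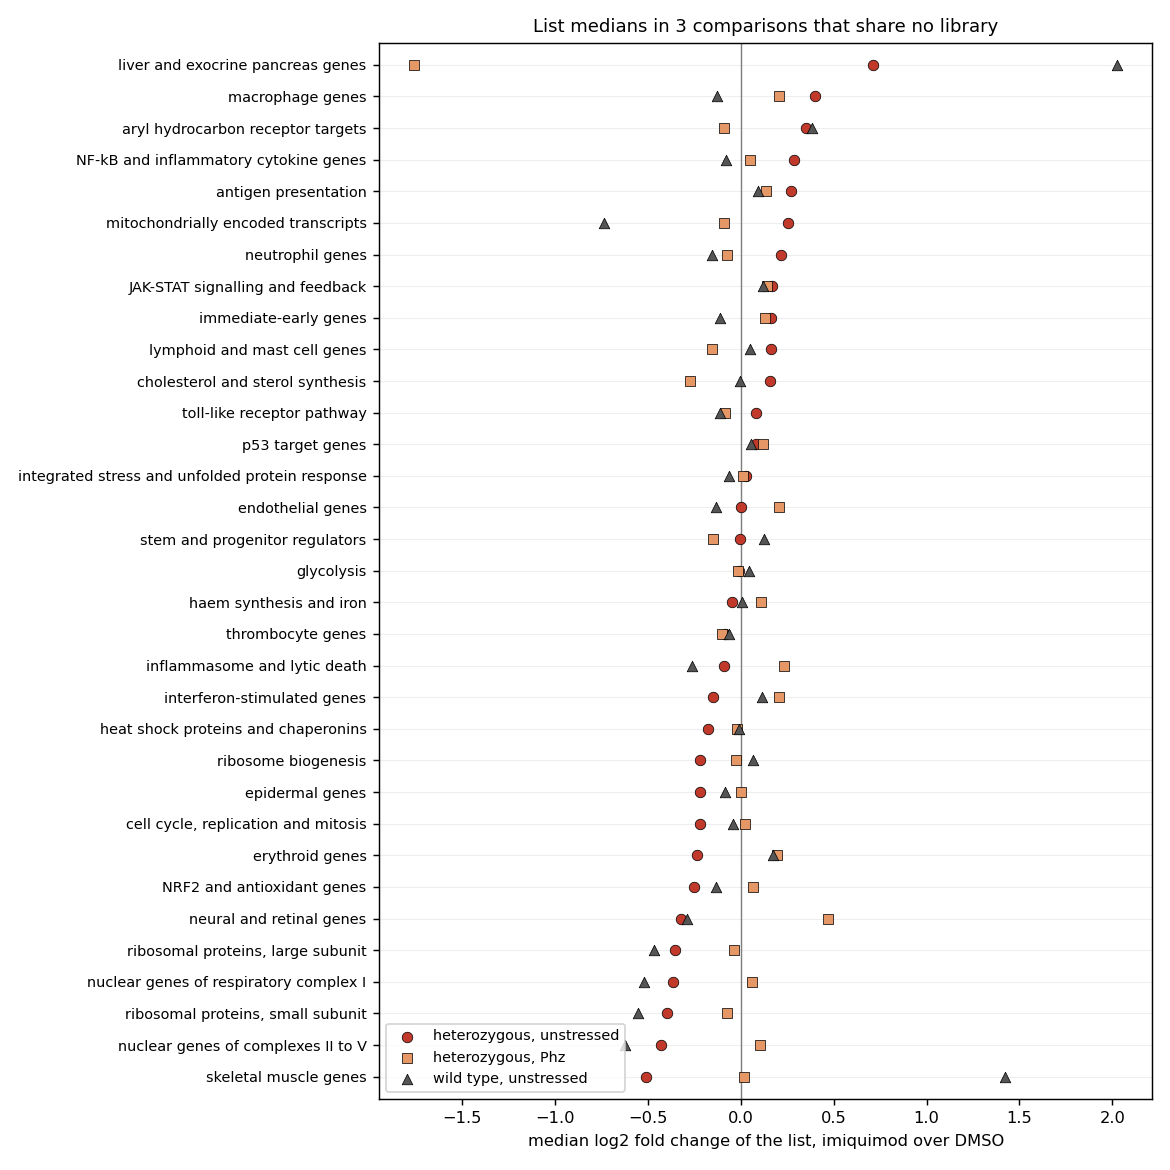
Median log2 fold change (imiquimod over DMSO) of each of the 33 lists in unstressed heterozygotes (red circles), Phz-stressed heterozygotes (orange squares) and unstressed wild type (grey triangles), which share no library. The nuclear respiratory lists are negative in both unstressed settings and at 0.06 and 0.10 in stressed heterozygotes, and the mitochondrially encoded transcripts are at 0.25, -0.09 and -0.74.

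Whether the response of unstressed heterozygotes differed from these settings was tested by interaction, the drug's log2 fold change in unstressed heterozygotes minus that in the other setting. Both tests use the 7 libraries described here, so they are not independent of the results above. Against unstressed wild type 0 genes were called by edgeR (smallest adjusted p 0.52, 1046 genes or 5.25% at an unadjusted p under 0.05), 0 by limma-voom and 7 by DESeq2 (0.0351%). Against stressed heterozygotes the counts were 0 by edgeR (smallest adjusted p 0.46, 1093 genes or 5.48%), 0 by limma-voom and 10 by DESeq2 (0.0502%).

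The smallest p against wild type belonged to MT-CO2. With imiquimod it had 5964, 4477 and 5614 CPM in unstressed heterozygotes, against 4340, 3551, 4102 and 4374 CPM with DMSO. In wild type it had 3442, 2847, 2948 and 3280 CPM with imiquimod and 4951, 4168 and 6549 CPM with DMSO, so the groups lay apart in the opposite order. The interaction was 1.13 ± 0.23 (unadjusted p = 2.6e-05; adjusted p = 0.52, edgeR; 0.0402, DESeq2). All 13 mitochondrially encoded transcripts had a positive interaction, with a median of 1.01, and 8 of them had an unadjusted p under 0.05. Of all 19930 genes, 9290 had a positive interaction against wild type, 377 of them at an unadjusted p under 0.05, and the median was -0.08. MT-CO3 had an interaction of 1.01 ± 0.24 against wild type and 1.00 ± 0.23 against stressed heterozygotes. In stressed heterozygotes it had 3160, 4124, 3664 and 3187 CPM with imiquimod and 5521, 4720, 3531, 5521 and 5058 CPM with DMSO. Next by p against wild type came si:cabz01102082.1, which has no informative name (2.50 ± 0.61), prkar1ab, a regulatory subunit of protein kinase A (-1.29 ± 0.33), CLDN8, a claudin (2.83 ± 0.73), and DDX39A (-0.89 ± 0.23).

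Against stressed heterozygotes the smallest p belonged to SOX4, with an interaction of 2.22 ± 0.47 (unadjusted p = 4.4e-05; adjusted p = 0.46, edgeR; 0.0119, DESeq2). In stressed heterozygotes SOX4 had 35.8, 28.2, 29.7 and 11.5 CPM with imiquimod and 50.6, 45.9, 36.4, 61.5 and 54.4 CPM with DMSO, the reverse of the order in unstressed heterozygotes. eef2b, the elongation factor that moves the ribosome along mRNA, had 10110, 8496 and 8985 CPM with imiquimod and 5877, 7912, 7097 and 6175 CPM with DMSO in unstressed heterozygotes. In stressed heterozygotes it had 7030, 7161, 4886 and 5654 CPM with imiquimod and 8200, 7805, 7947, 9354 and 8721 CPM with DMSO, also without overlap and in the opposite order. hnrnpa0l had an interaction of -0.86 ± 0.20 and NDFIP2, an adaptor of ubiquitin ligases, of 1.36 ± 0.33. With MT-CO3, these 4 genes had the smallest p-values among genes with informative names. The nuclear genes of complexes II to V had a median interaction of -0.53, with 46 of 51 negative and 13 negative at an unadjusted p under 0.05, beside 631 of 19930 for all genes. None of these reached the threshold of edgeR.

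**Figure D5:**
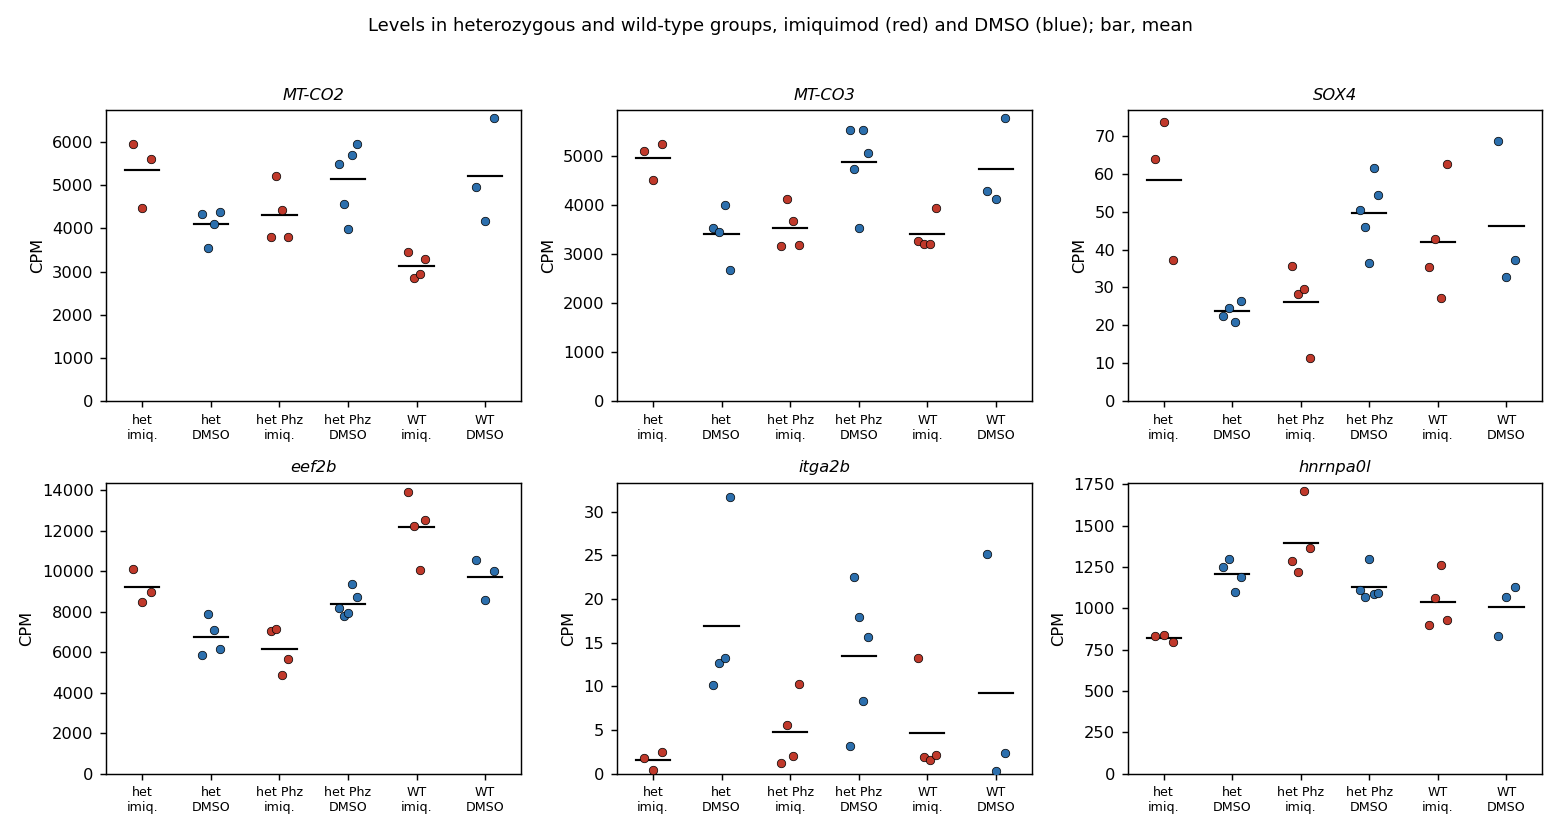
CPM in each library (points) and group mean (bar) for 6 genes in unstressed heterozygotes, Phz-stressed heterozygotes and unstressed wild type, with imiquimod (red) left of DMSO (blue) in each pair. For MT-CO2, MT-CO3, SOX4 and eef2b the imiquimod mean lies above the DMSO mean in unstressed heterozygotes and below it in stressed heterozygotes, and for hnrnpa0l the order is the reverse.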

How the data were processed

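The values used were whole-number read counts per gene for all 30 libraries, deposited by the authors without normalization. The submitters' processing notes name genome build GRCz11, featureCounts (Subread 2.0.0), HISAT2 2.1.0 and SAMtools 1.9, besides Trimmomatic 0.39, FastQC 0.11.9 and DESeq2, without giving their roles. The annotation release, strand setting and gene filter are not given in the sources used here, so overlapping and near-identical genes may share reads. The table held 20631 genes, and 19930 were tested after filterByExpr. Symbols, many in human-style capitals, were taken from an identifier table, which matched 19528. Smart-seq2 reads carry no molecular identifiers.

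Tests used edgeR 4.0.16 (R 4.3.3), with TMM factors, estimateDisp and a robust quasi-likelihood test in 1 model of 8 groups, whose shared estimate of the spread serves the 7 libraries compared. Library sizes were 5703056 to 15238153 counts over the series. CPM values are counts divided by the library's total over tested genes times its TMM factor (1.02 to 1.07 in the 7 libraries) and scaled to 1000000. Calls required an adjusted p (Benjamini-Hochberg, in edgeR and limma-voom over all tested genes) under 0.05. DESeq2 gave no adjusted p for some tested genes, itga2b and TLR7 among them, so it could not call these. Its percentages are nevertheless of all tested genes. limma-voom (limma 3.58.1), DESeq2 1.42.0, other scalings and filters, fits of fewer libraries and a replicate block were alternatives. The scripts were tested on simulated counts. The SE of a log2 fold change was approximated as its absolute value divided by the square root of the F statistic of the edgeR test. Library measures were compared by exact permutation over 35 splits.

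The genes named are RPS14, TLR7 and itga2b, the 8 of smallest p in each direction with an informative symbol and a mean log2 CPM of at least 1, up to 4 members of smallest p per list (mean log2 CPM of at least 0), and by the first symbol and expression limits, the 5 of smallest p per interaction. The groups, the 33 gene lists and this rule were chosen with earlier results of these data known. Other genes, such as GP1BB and further cell type markers, were named outside the rule. Lists overlap by up to 8 genes. Same-numbered replicates were not paired, since their correlations, 0.084, -0.00066 and 0.15, were not all over 0.1. For imiquimod replicates 1 and 3 the same-numbered DMSO library nevertheless gave the highest correlation. The summed NF-kB level was 1774, 2816 and 6267 CPM in imiquimod replicates 1 to 3. In DMSO replicates 1 to 4 it was 1653, 2965, 5698 and 1799 CPM, so replicates 1 to 3 ran in the same order. The labels do not say what the replicate number marks.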

Additional observations from a re-analysis of the deposited data

Results flagged for a closer look

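In 161 groups of 4 or 5 libraries, over the genes named, their lists and the library measures, the library farthest out was tested by Dixon's ratio at the 95% level, which chance alone exceeds in about 1 of 20 groups, and 12 were picked out.

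Of these, 10 were single DMSO libraries of unstressed heterozygotes. The imiquimod group, with 3 libraries, was too small for the ratio and was not scanned. List sums, library measures and genes named for the drug effect alone were scanned in this DMSO group only. The number found there therefore does not compare the groups. itga2b had 31.7 CPM in DMSO replicate 4, against 10.2 to 13.2 CPM in the other 3, all above the imiquimod libraries. TLR7 had 4.85 CPM in DMSO replicate 3 and 0 in the other 3. The same replicate had 84.9 CPM of arhgap29b, against 72.3 to 74.0 CPM, and 4.68 CPM of tnfaip2b, against 0 to 0.276 CPM. DHX58 had 18.4 CPM in DMSO replicate 1, against 0.323 to 3.17 CPM, and RPL11 had 727 CPM in the same library, against 469 to 506 CPM. RRS1 had 81.2 CPM in DMSO replicate 2, against 65.2 to 66.9 CPM. The summed CPM of sterol synthesis genes was 343.5 in DMSO replicate 2, against 273 to 283, that of skeletal muscle genes 1082 in DMSO replicate 4, against 144 to 196, and that of liver and exocrine pancreas genes 5532 in DMSO replicate 3, against 663 to 931.

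The other 2 were in groups used for comparison. MT-CO3 had 3923 CPM in replicate 4 of unstressed wild type with imiquimod, against 3196 to 3251 CPM in the others, and hnrnpa0l had 1299 CPM in replicate 3 of stressed heterozygotes with DMSO, against 1070 to 1108 CPM.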

How the results depend on the processing

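The count of called genes, 0 by edgeR, was 12 by DESeq2, and the interaction counts, also 0, were 7 (against wild type) and 10 (against stressed heterozygotes) by DESeq2; limma-voom, other scalings, filters and a term for library number (S1 to S6 against later) gave 0. With the replicate number as a block the counts stayed at 0, and the median of complexes II to V was -0.41; the muscle and neural medians turned positive there (0.299 and 0.126). Leaving out 1 library at a time gave 0 to 1 called genes for the drug and for the stress interaction: si:ch211-136a14.2 without imiquimod replicate 1 (adjusted p = 0.0038, edgeR), and COG8 without imiquimod replicate 3 (adjusted p = 0.0097, and 0.0094 in the interaction), a gene at 0 CPM in the remaining imiquimod libraries.

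Without the libraries numbered S1 to S6 in the labels, TLR7 became -1.12 and the medians of p53 targets and inflammasome genes 0.30 and 0.17. Leaving out single libraries gave log2 fold changes of -0.68 to 6.21 for TLR7, -0.999 to 0.023 for IRAK4, -0.71 to 4.73 for CYP1A1 and -0.012 to 0.54 for MT-CO1. List medians ran from -0.36 to 0.28 for interferon-stimulated, -0.19 to 0.21 for inflammasome, -0.10 to 0.32 for immediate-early, -0.35 to -0.12 for ribosome biogenesis, -1.98 to 0.29 for muscle and 0.035 to 2.69 for liver and pancreas genes. The difference in genes detected ran from -449 to 1280 and that in the share of the 50 most abundant genes from -0.114 to 1.45 percentage points. The causes were not tested. The other results kept their direction or moved by less than the spread between replicates, and 10 genes chosen by the naming rule were called by DESeq2 only, CLDN8 among them against stressed heterozygotes (adjusted p = 0.0496). The common biological coefficient of variation of 0.821 and 3 and 4 libraries a group limit what could be called.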
